A study of Mus musculus with 8 samples.

Results

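The genes described here encode the subunits of the proteasome, measured as polyadenylated RNA in the hippocampus of 8 wild-type male C57BL/6J mice aged 20 weeks. The mothers of 4 of the mice ate a low-phytoestrogen control feed with 0 mg/kg of bisphenol A (BPA, a plasticiser monomer), and the mothers of the other 4 ate that feed with 50 mg of BPA per kg during gestation and lactation. Both groups were kept on control feed from weaning at postnatal day 21, so the groups differ in developmental exposure only, per the labels. Rows of the deposited count table were taken whose symbol starts with Psma, Psmb, Psmc, Psmd, Psme or Psmf followed by a digit and that held at least 80 reads over the 8 libraries: 46 rows matched by symbol and 44 of 24527 rows were members. The pair left out were Psmb11 (61 reads) and Psma8 (71 reads), the thymus and testis forms of a catalytic and an outer-ring subunit, and the member nearest the threshold was Psmb9 (148 reads).

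The proteasome is the protease that degrades ubiquitin-tagged proteins in the cytosol and nucleus. Its barrel, the 20S core, has outer rings of alpha subunits that gate the entry and inner rings of beta subunits, of which Psmb5, Psmb6 and Psmb7 carry the chymotrypsin-like, caspase-like and trypsin-like activities. The 19S regulatory particle caps the core: its ring of ATPases (the Psmc genes) unfolds substrates, and its non-ATPase subunits (the Psmd genes) bind ubiquitin and remove it. In cells exposed to interferon, Psmb8, Psmb9 and Psmb10 replace the constitutive catalytic subunits and form the immunoproteasome, which helps to make peptides for class I antigen presentation. In neurons, proteasomes take part in the turnover of synaptic proteins.

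The 44 members were 7 alpha subunits, 7 constitutive beta subunits, 3 immunoproteasome subunits, 6 ATPases and 14 non-ATPase genes of the 19S particle, 5 activators, the inhibitor Psmf1, and Psmc3ip. Psmc3ip encodes a cofactor of meiotic recombination and is a member through its symbol only. Psmd5, Psmd9 and Psmd10 are chaperones of 19S assembly rather than subunits of the finished particle. Psme2b is annotated with 1 exon block against 11 for Psme2, with which it shares most of its sequence.

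To show the promoter sequence of members on which the results turn, the 250 bases before the RefSeq start (GRCm38.p6, the assembly of mm10) are printed 5′ to 3′ on the gene's own strand for 5 members. They are the ATPases Psmc1 and Psmc4, whose groups did not overlap, and the constitutive and inducible catalytic subunits Psmb5, Psmb8 and Psmb9. Capitals mark matches to any of 4 motifs described after the sequences, and Psmc4 has none. The windows of Psmb8 and Psmb9 lie inside the gene spans given by GENCODE, whose first transcripts start further upstream, and the other 3 overlap the first bases of theirs.
Psmc1 (chr12:100109952-100110201, plus strand): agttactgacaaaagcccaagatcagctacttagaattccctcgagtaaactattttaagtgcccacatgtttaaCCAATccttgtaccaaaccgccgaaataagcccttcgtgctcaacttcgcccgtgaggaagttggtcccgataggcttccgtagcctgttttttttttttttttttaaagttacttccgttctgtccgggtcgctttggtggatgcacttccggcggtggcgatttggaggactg
Psmc4 (chr7:28050093-28050342, minus strand): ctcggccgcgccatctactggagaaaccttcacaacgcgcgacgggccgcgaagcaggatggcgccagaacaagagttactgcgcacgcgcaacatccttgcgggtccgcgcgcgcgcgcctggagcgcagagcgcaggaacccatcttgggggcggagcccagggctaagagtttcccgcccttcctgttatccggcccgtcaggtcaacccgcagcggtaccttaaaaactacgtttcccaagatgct
Psmb5 (chr14:54617996-54618245, minus strand): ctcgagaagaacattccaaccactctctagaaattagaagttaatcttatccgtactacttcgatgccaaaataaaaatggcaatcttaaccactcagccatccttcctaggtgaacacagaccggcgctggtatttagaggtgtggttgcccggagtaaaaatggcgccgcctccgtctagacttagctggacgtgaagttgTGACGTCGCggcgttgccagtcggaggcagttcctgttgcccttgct
Psmb8 (chr17:34197945-34198194, plus strand): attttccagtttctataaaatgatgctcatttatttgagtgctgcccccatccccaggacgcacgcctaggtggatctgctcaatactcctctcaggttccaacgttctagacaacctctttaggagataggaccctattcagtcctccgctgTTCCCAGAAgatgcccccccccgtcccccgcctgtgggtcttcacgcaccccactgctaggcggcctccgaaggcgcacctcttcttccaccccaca
Psmb9 (chr17:34187331-34187580, minus strand): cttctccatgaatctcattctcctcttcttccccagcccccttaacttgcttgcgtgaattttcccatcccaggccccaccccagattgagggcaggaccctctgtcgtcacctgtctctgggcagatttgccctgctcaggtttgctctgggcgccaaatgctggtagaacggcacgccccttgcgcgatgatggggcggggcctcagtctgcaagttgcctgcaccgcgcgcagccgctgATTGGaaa

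The motifs were searched on both strands of the same 250 bases of 27025 genes, and 38 of the 44 members had an entry. The antioxidant response element core, TGACNNNGC, through which the factor Nfe2l1 is known to raise proteasome genes, was found before 5 members (Psmb5, Psmb6, Psmc6, Psmd9 and Psmd12), or 13.2%, beside 13.9% of the genes tested here and 11.5% of all genes. In Psmb5 the match is tgacgtcgc, from -47 to -39. The CCAAT box, bound by the factor NF-Y, was before 14 members (36.8%, beside 40% of tested genes), among them Psmc1, and the interferon-stimulated response element (GAAA, any 2 bases, GAAA), before Psmb3, Psmd4 and Psmd9 (7.89%, beside 3.16%). The gamma-activated site, TTCNNNGAA, an element of interferon gamma response, was found before 1 member, Psmb8 (2.63%, beside 7.14%), as ttcccagaa from -97 to -89. The Psmb9 window shares 225 bases with that of Tap1, a peptide transporter gene that starts on the opposite strand beside it. In Psmb9 the capitals are a CCAAT box on the opposite strand, from -8 to -4. The printed windows hold 1 match each apart from Psmc4, so no matches overlap.

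Library totals were 27135071 to 40793192 counts in controls and 43119986 to 54013884 in BPA mice, and since every BPA library was deeper, depth and exposure cannot be told apart. All 8 markers listed for hippocampal neurons were found in every library (summed level 758 to 854 CPM in controls, 773 to 842 CPM after BPA). Of these 8, 4 had estimates above 0 and 4 below, and single markers were less even than the sum. Prox1 was at 85.0, 131, 131 and 87.1 CPM in control replicates 1 to 4 and 117 to 127 CPM after BPA. Wfs1 was at 136, 78.4, 93.8 and 115 CPM in control replicates 1 to 4 and 86.5 to 107 CPM after BPA. Choroid plexus markers stood apart in control replicate 2 (3064 CPM against 205 to 301 CPM in the other controls) and BPA replicate 3 (814 CPM against 163 to 352 CPM in the other BPA mice), and the counts over all members and by subunit class are also given without these 2 libraries. In bulk tissue, fewer cells of a type and less RNA per cell cannot be told apart.

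The members together held 0.211 to 0.226% of counts in controls and 0.221 to 0.235% in BPA mice. Levels are given as CPM, each gene's count relative to its library's total after TMM scaling, with group means ± SD over 4 mice, and differences as log2 fold changes of BPA over control from edgeR's quasi-likelihood fit of all 15434 genes that passed its filter on low counts. A value in parentheses with ± and no unit is a log2 fold change and its standard error. All 44 members passed that filter. None was called at an adjusted p of 0.05 (edgeR, adjusted p 0.955 to 0.999), where 0% of all genes tested were called.

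Most members had slightly higher estimates in BPA mice. Of the 44, 35 (79.5%) had a log2 fold change above 0, beside 50% of all genes tested, and the median over the members was 0.047, a fold of 1.03, beside a fold of 1.00 over all genes. An unadjusted p under 0.05 was found for 4 members (9.09%, beside 4.52% of all genes tested): Psmc1, Psmc3, Psmc4 and Psmd7, each of the 19S particle and each higher in BPA mice. Among genes tested, 2.22% had such a p and were higher, and 2.3% had one and were lower, which was the case for 0 members. DESeq2 also called 0 members at an adjusted p of 0.05 (0.0337% of genes with a p were called), with 4 at an unadjusted p under 0.05 (3.02% of all), and limma-voom called 0 (0% of all), with 5 at an unadjusted p under 0.05 (4.56% of all). The 95% interval stayed within 1.5-fold in either direction for 42 of the 44 members, beside 13184 of the 15434 genes tested. Psmb8 and Psmb9 were the exceptions among members.

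**Figure D1:**
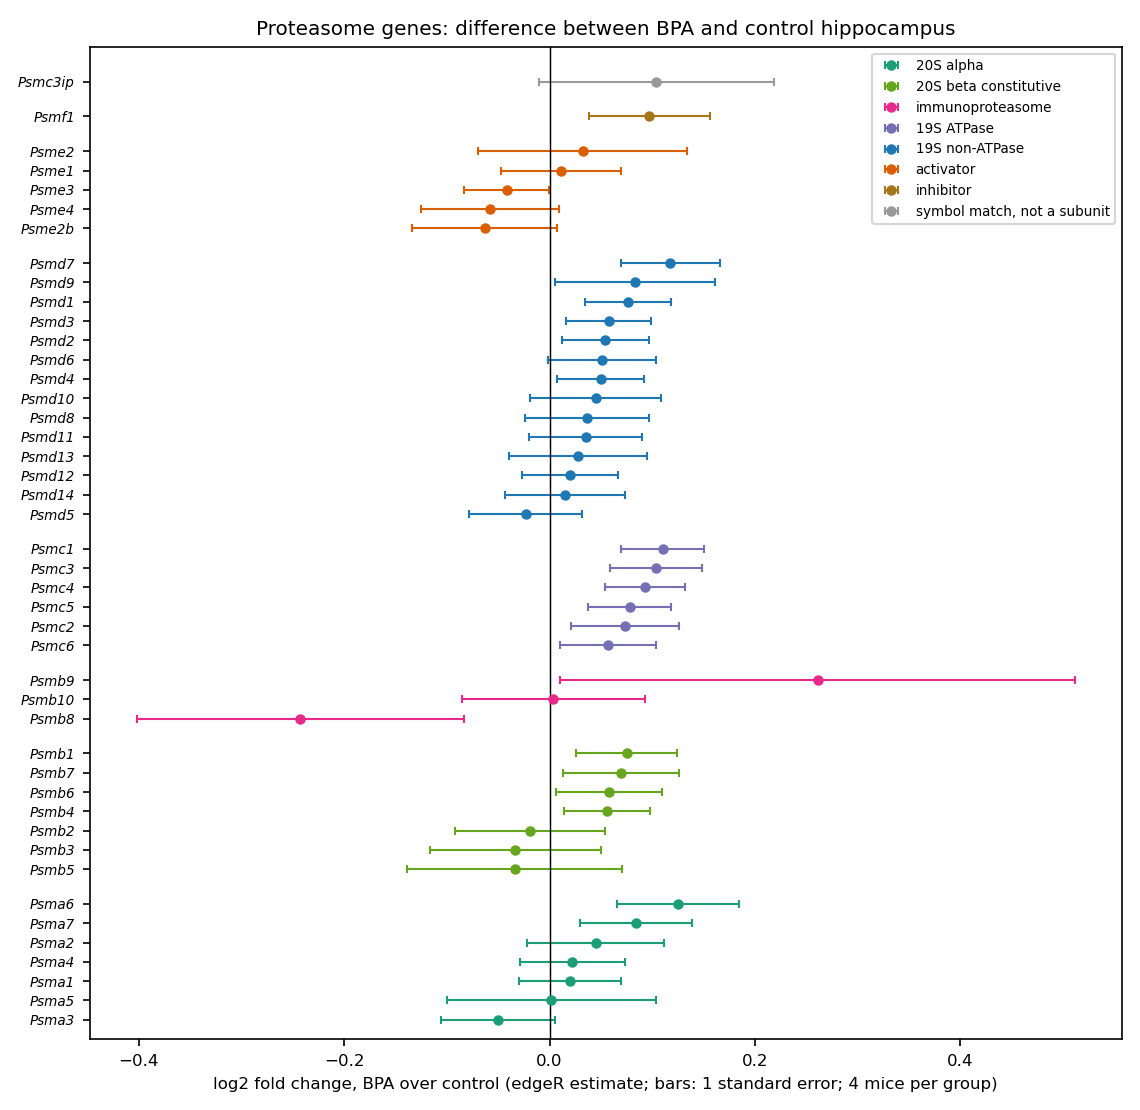
Log2 fold change of BPA over control (x axis) of the 44 members (y axis), by class, as the edgeR estimate with 1 standard error, from 4 mice a group. The 6 ATPases lie between 0.057 and 0.11, and the widest bars belong to Psmb8 and Psmb9.

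Both the count of 4 and the genes behind it rested on single libraries. It was 1 without control replicate 1 (Psmc1), 1 without control replicate 2 (Psmc4), 1 without BPA replicate 2 (Psmc1) and 2 without BPA replicate 1 (Psma6 and Psmc5, neither of them among the 4). Without control replicate 4 it was 5, of which only Psmc1 was among the 4. Without control replicate 3, BPA replicate 3 or BPA replicate 4 it was 5, 4 and 5, with all 4 kept each time. With both choroid plexus libraries left out it was 0, while 32 members were above 0 with a median of 0.041: 6 of 6 ATPases, 11 of 14 non-ATPase genes, 5 of 7 alpha and 5 of 7 constitutive beta subunits, 1 of 3 immunoproteasome subunits and 2 of 5 activators. In a fit that also held the log2 of library depth, 36 members were above 0 and the median was 0.091. That fit also gave 4 members with an unadjusted p under 0.05, but they were Psma6, Psma7, Psmb2 and Psmc2, and 0 of the 4 named above.

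Of the 4 members with an unadjusted p under 0.05, 3 were ATPases of the 19S ring. All 6 ATPases had estimates above 0 (median 0.085, 3 with an unadjusted p under 0.05). Psmc1 (chromosome 12, 100110154 to 100123405), whose C-terminus helps to open the gate of the core, was at 88.0, 85.3, 89.0 and 88.6 CPM in control replicates 1 to 4 and 96.9, 95.2, 96.4 and 90.1 CPM in BPA replicates 1 to 4. All 4 BPA libraries lay above all 4 controls, BPA replicate 4 by the least, and the log2 fold change was 0.11 ± 0.0406 (fold 1.08, 95% interval 1.02 to 1.15; edgeR unadjusted p = 0.0185, adjusted p = 0.955). Psmc4, another ATPase of the ring (chromosome 7, 28041707 to 28050101), was at 52.9, 54.2, 54.1 and 52.9 CPM in control replicates 1 to 4 and 58.3, 57.3, 56.5 and 56.3 CPM in BPA replicates 1 to 4. Here too the groups did not overlap, with a log2 fold change of 0.093 ± 0.0387 (fold 1.07, 95% interval 1.01 to 1.13; edgeR unadjusted p = 0.0330, adjusted p = 0.955). Such a gap between groups was seen for 2 of 44 members (4.55%), beside 2.79% of all genes tested in either direction and 1.37% with BPA higher.

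Psmc3 (chromosome 2, 91054009 to 91066369), another ATPase whose C-terminus docks into the core, was at 109, 108, 113 and 107 CPM in control replicates 1 to 4 and 117, 125, 116 and 111 CPM in BPA replicates 1 to 4. BPA replicate 2 was the highest library and BPA replicate 4 lay below control replicate 3, so the groups overlapped; the log2 fold change was 0.10 ± 0.0448 (edgeR unadjusted p = 0.0381, adjusted p = 0.955) and 0.049 with depth in the fit. Psmc3 overlaps Slc39a13 on the opposite strand over 215 exon bases, and the sources used here do not say whether reads were counted by strand. The other ATPases, Psmc2, Psmc5 and Psmc6, had log2 fold changes of 0.074 ± 0.0525, 0.078 ± 0.0406 and 0.057 ± 0.0468, and their groups overlapped.

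**Figure D2:**
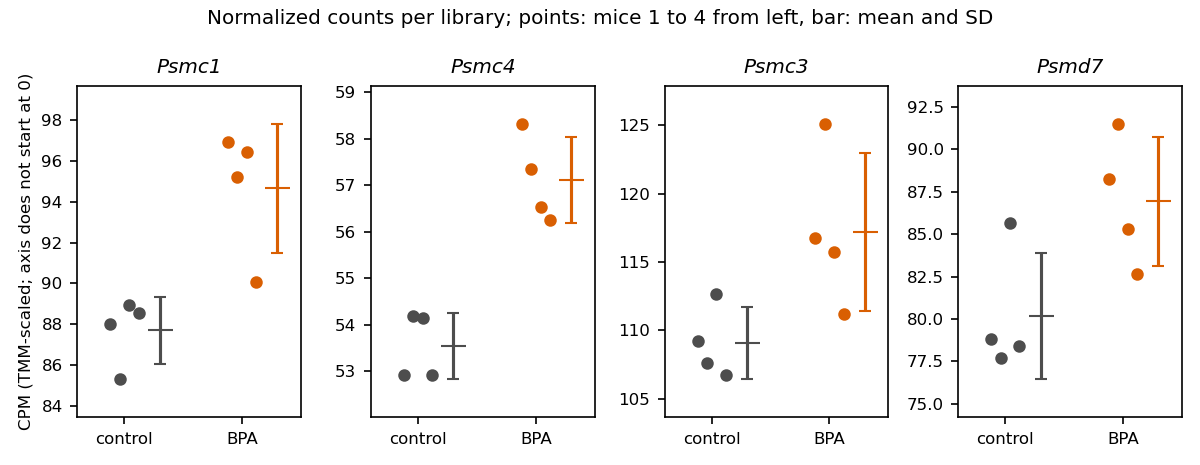
CPM (y axis, not starting at 0) of the 4 members with an unadjusted p under 0.05, per library, with mean and SD of 4 mice beside the points. Psmc1 and Psmc4 show no overlap between groups, while Psmc3 and Psmd7 each have a control library within the BPA range.

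Of the 14 non-ATPase genes of the 19S particle, 13 had estimates above 0 (median 0.047). Psmd7 (chromosome 8, 107580381 to 107588464), which forms a dimer with the deubiquitinase Psmd14, was at 78.8, 77.7, 85.7 and 78.4 CPM in control replicates 1 to 4 and 88.3, 91.5, 85.3 and 82.7 CPM in BPA replicates 1 to 4. Control replicate 3 stood above the other controls and above BPA replicates 3 and 4, and the log2 fold change was 0.12 ± 0.0479 (fold 1.08, 95% interval 1.01 to 1.17; edgeR unadjusted p = 0.0297, adjusted p = 0.955). Its partner Psmd14 was at 59.0 ± 5.26 CPM in control mice against 59.6 ± 1.88 CPM after BPA (0.015 ± 0.0588, n = 4 each). Psmd1, a large scaffold subunit of the particle's base, was at 144, 147, 147 and 152 CPM in control replicates 1 to 4 and 155, 161, 158 and 149 CPM in BPA replicates 1 to 4. Only BPA replicate 4 lay inside the control range (log2 fold change 0.076 ± 0.0418; edgeR unadjusted p = 0.0930, adjusted p = 0.955). Psmd1 overlaps Htr2b on the opposite strand over 252 exon bases, and 12 of the 44 members have such an overlap with some gene. The longest is that of Psmd9 with the predicted gene Gm26745, over 1849 exon bases, and Gm26745 is not a row of the table.

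Of the other non-ATPase genes, Psmd2, Psmd3, Psmd4 (a ubiquitin receptor), Psmd6, Psmd8, Psmd9, Psmd10, Psmd11, Psmd12 and Psmd13 had estimates from 0.020 (Psmd12) to 0.083 (Psmd9), and the assembly chaperone Psmd5 was at -0.023 ± 0.0550. In each of them the groups overlapped.

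Of 7 alpha subunits 6 had estimates above 0 (median 0.022) and of 7 constitutive beta subunits 4 did (median 0.056), none with an unadjusted p under 0.05. Psma6, an alpha-ring subunit, had the largest estimate of the core and was at 49.0, 52.8, 54.3 and 60.0 CPM in control replicates 1 to 4 and 56.1, 58.0, 61.5 and 59.7 CPM in BPA replicates 1 to 4. Control replicate 1 was the lowest and BPA replicate 3 the highest library, and control replicate 4 lay within the BPA range; the log2 fold change was 0.12 ± 0.0593 (edgeR unadjusted p = 0.0563, adjusted p = 0.955). With depth in the fit it was 0.29. Psma7, of the same ring, was at 43.3, 42.6, 49.2 and 47.3 CPM in control replicates 1 to 4 and 48.5, 48.4, 50.2 and 46.0 CPM in BPA replicates 1 to 4, again with overlap through control replicates 3 and 4 (log2 fold change 0.084 ± 0.0546; 0.19 with the depth covariate and 0.032 with both choroid plexus libraries left out).

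Among beta subunits that carry no catalytic site, Psmb1 was at 65.1, 68.3, 64.4 and 74.0 CPM in control replicates 1 to 4 and 70.4, 72.7, 70.6 and 72.4 CPM in BPA replicates 1 to 4. Control replicate 4 exceeded every BPA library, while the other controls lay below all of them (log2 fold change 0.075 ± 0.0489; edgeR unadjusted p = 0.150, adjusted p = 0.955). Psmb4 was at 41.4, 42.6, 43.6 and 43.1 CPM in control replicates 1 to 4 and 43.5, 44.0, 44.3 and 45.6 CPM in BPA replicates 1 to 4, with control replicate 3 inside the BPA range (0.056 ± 0.0416). The rest of the core, Psma1, Psma2, Psma3, Psma4, Psma5, Psmb2 and Psmb3, had estimates from -0.050 (Psma3) to 0.045 (Psma2).

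For each of the constitutive catalytic subunits the groups overlapped. Psmb5, the chymotrypsin-like subunit (chromosome 14, 54614119 to 54618022), was at 8.97, 9.03, 8.43 and 11.3 CPM in control replicates 1 to 4 and 9.57, 9.52, 7.72 and 9.91 CPM in BPA replicates 1 to 4. Control replicate 4 was highest and BPA replicate 3 lowest (log2 fold change -0.034 ± 0.105), and the sign turned without either one (0.058 and 0.040). Psmb6, the caspase-like subunit, was at 39.7, 39.1, 38.0 and 41.8 CPM in control replicates 1 to 4 and 44.5, 40.6, 39.9 and 40.0 CPM in BPA replicates 1 to 4, where BPA replicate 1 stood above the others (0.058 ± 0.0515, and 0.019 without it). Psmb7, the trypsin-like subunit, was at 81.7, 88.6, 82.5 and 92.4 CPM in control replicates 1 to 4 and 83.0, 92.6, 96.6 and 89.8 CPM in BPA replicates 1 to 4, with the groups intermixed (0.070 ± 0.0564). Psmb7 overlaps Nek6 on the opposite strand over 405 exon bases.

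Immunoproteasome subunits were scarce in this tissue, and no one direction was shared by them. Psmb8 (chromosome 17, 34197721 to 34201454), the inducible counterpart of Psmb5, was covered by 40 to 80 reads per library and was at 1.63, 1.28, 1.87 and 1.52 CPM in control replicates 1 to 4 and 1.16, 1.49, 1.36 and 1.29 CPM in BPA replicates 1 to 4. BPA replicate 1 was the lowest library and control replicate 3 the highest, and the groups overlapped (log2 fold change -0.24 ± 0.159; fold 0.845, 95% interval 0.665 to 1.07; edgeR unadjusted p = 0.152, adjusted p = 0.955). Psmb9 (chromosome 17, 34181987 to 34187764), the counterpart of Psmb6, had 10 to 27 reads per library and was at 0.420, 0.426, 0.323 and 0.495 CPM in control replicates 1 to 4 and 0.335, 0.504, 0.576 and 0.576 CPM in BPA replicates 1 to 4. BPA replicates 3 and 4 were highest and control replicate 3 lowest, at 0.26 ± 0.250 (fold 1.20, 95% interval 0.822 to 1.75). The interval spans a fold of 1.00. Psmb10 (chromosome 8, 105935735 to 105938444), the counterpart of Psmb7, was the most abundant of them, at 5.91, 5.52, 5.20 and 5.72 CPM in control replicates 1 to 4 and 5.61, 5.67, 6.06 and 5.05 CPM in BPA replicates 1 to 4, and its means were the same within the spread (0.0034 ± 0.0891; fold 1.00, 95% interval 0.877 to 1.15). Psmb9 overlaps Tap1 on the opposite strand over 212 exon bases, and Psmb8 overlaps the predicted gene Gm20496 over 498.

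Set against their constitutive counterparts per kilobase of exon, the inducible subunits stayed low in every mouse. Psmb8 was 10.04, 7.82, 12.3 and 7.44% in control replicates 1 to 4 and 6.71, 8.66, 9.73 and 7.19% in BPA replicates 1 to 4 of the level of Psmb5. Psmb9 was 0.625, 0.643, 0.502 and 0.699% in control replicates 1 to 4 and 0.444, 0.733, 0.852 and 0.851% in BPA replicates 1 to 4 of the level of Psmb6. Psmb10 was 6.39, 5.51, 5.58 and 5.48% in control replicates 1 to 4 and 5.98, 5.42, 5.55 and 4.97% in BPA replicates 1 to 4 of the level of Psmb7. In each ratio the groups overlapped, and the means differed by less than the larger SD: 9.39 ± 2.24% in controls and 8.07 ± 1.38% in BPA mice for Psmb8, 0.617 ± 0.0830% and 0.720 ± 0.192% for Psmb9, and 5.74 ± 0.439% and 5.48 ± 0.417% for Psmb10. Psmb5 shares 50% of its sequence stretches with genes elsewhere, and the part of this in its ratio was not tested.

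**Figure D3:**
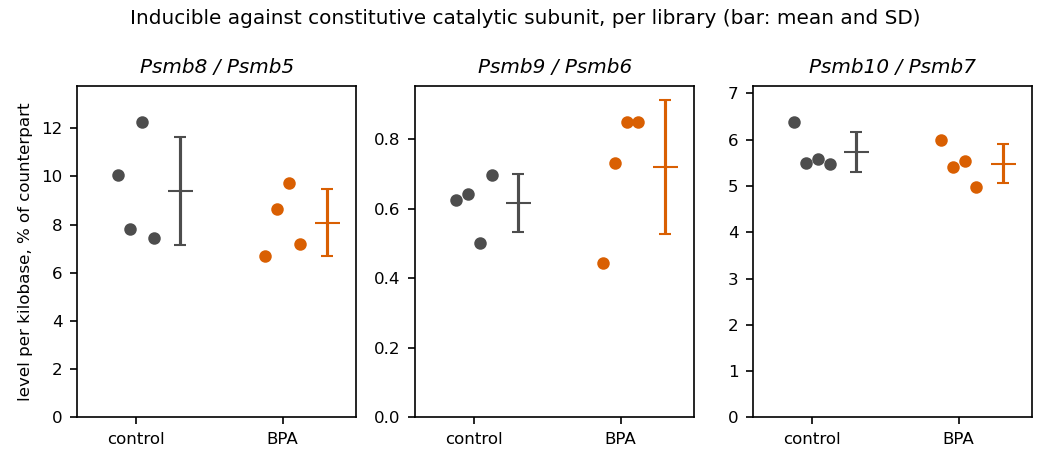
Level per kilobase of each inducible catalytic subunit as a percent of its constitutive counterpart (y axis, from 0), per library, with mean and SD of 4 mice. Psmb8 lies between 6.71 and 12.3% of Psmb5, Psmb9 under 1% of Psmb6, and Psmb10 between 4.97 and 6.39% of Psmb7.

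Markers of microglia, of leukocytes and red cells, and of the interferon response were measured beside the inducible subunits. The 12 microglial markers summed to 239 to 254 CPM in controls and 236 to 259 CPM after BPA, and 6 of 12 had estimates above 0. Among the 9 markers of leukocytes and red cells, Cd3e, S100a8, Hba-a1 and Hbb-bt each had 0 reads in at least 1 library, and the list summed to 5.18 to 6.66 CPM in controls and 5.46 to 6.08 CPM after BPA. The 10 interferon-response markers had 8 estimates above 0 with a median of 0.33, 3 of them with an unadjusted p under 0.05, and summed to 54.1 to 65.8 CPM in controls and 59.6 to 75.3 CPM after BPA, highest in BPA replicate 4. That library was lowest of the 8 for Psmb10 and shared the highest level of Psmb9; the part of these cells and of interferon in the values was not tested.

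Activators of the core had estimates on both sides of 0. Psme1, a subunit of the interferon-inducible cap, was at 26.6, 29.4, 26.6 and 26.9 CPM in control replicates 1 to 4 and 28.6, 29.4, 26.9 and 25.5 CPM in BPA replicates 1 to 4 (0.011 ± 0.0586). Its partner Psme2 was at 4.52, 5.49, 4.68 and 4.38 CPM in control replicates 1 to 4 and 4.61, 4.63, 5.35 and 4.98 CPM in BPA replicates 1 to 4 (0.033 ± 0.102). Control replicate 2 was the highest library for both. Psme3, the nuclear homologue that forms a cap of its own, was at 90.9, 91.4, 93.0 and 97.9 CPM in control replicates 1 to 4 and 90.2, 89.5, 94.2 and 88.6 CPM in BPA replicates 1 to 4, with control replicate 4 highest (-0.042 ± 0.0417). Psme4, a large single-chain activator, was at 44.1, 49.4, 42.9 and 45.0 CPM in control replicates 1 to 4 and 42.6, 42.3, 49.4 and 40.1 CPM in BPA replicates 1 to 4. Control replicate 2 and BPA replicate 3, the libraries with choroid plexus signal, were its highest (log2 fold change -0.058 ± 0.0672, and -0.013 without control replicate 2 and -0.12 without BPA replicate 3). Psmf1, an inhibitor of the core in vitro, was at 16.7, 16.7, 14.9 and 15.9 CPM in control replicates 1 to 4 and 17.6, 17.1, 17.7 and 16.2 CPM in BPA replicates 1 to 4, where BPA replicate 4 lay below control replicates 1 and 2 (0.097 ± 0.0588; edgeR unadjusted p = 0.124, adjusted p = 0.955, and 0.043 with the depth covariate). Psmc3ip was at 2.75 ± 0.294 CPM in control mice against 2.95 ± 0.140 CPM after BPA (0.10 ± 0.114, n = 4 each).

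Many members were high or low in the same libraries, and the libraries did not sort by exposure alone. Against each gene's own mean log2 CPM over the 8 libraries, 6, 13, 12 and 32 of 44 members were above it in control replicates 1 to 4 and 23, 33, 36 and 20 in BPA replicates 1 to 4. Over all genes tested, 49.3 to 51.05% were above their mean in each library. Control replicate 1 had 0 of 14 constitutive core genes and 2 of 20 19S genes above their mean, and control replicate 4 had 13 of 14 and 13 of 20. In BPA replicate 2 the counts were 8 of 14 for the core and 19 of 20 for the 19S particle. Median deviations of the 44 members ran from -0.064 (control replicate 1) to 0.057 (BPA replicate 3). The summed level of the 20 19S genes was 1399.5 to 1478 CPM in controls and 1469 to 1533 CPM after BPA, so control replicate 4 overlapped BPA replicate 4, and that of the 14 core genes was 529.6 to 596.5 CPM in controls and 568 to 591 CPM after BPA, with control replicate 4 the highest of all 8 libraries. All members together summed to 2131 to 2283 CPM in controls and 2236 to 2337 CPM after BPA.

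**Figure D4:**
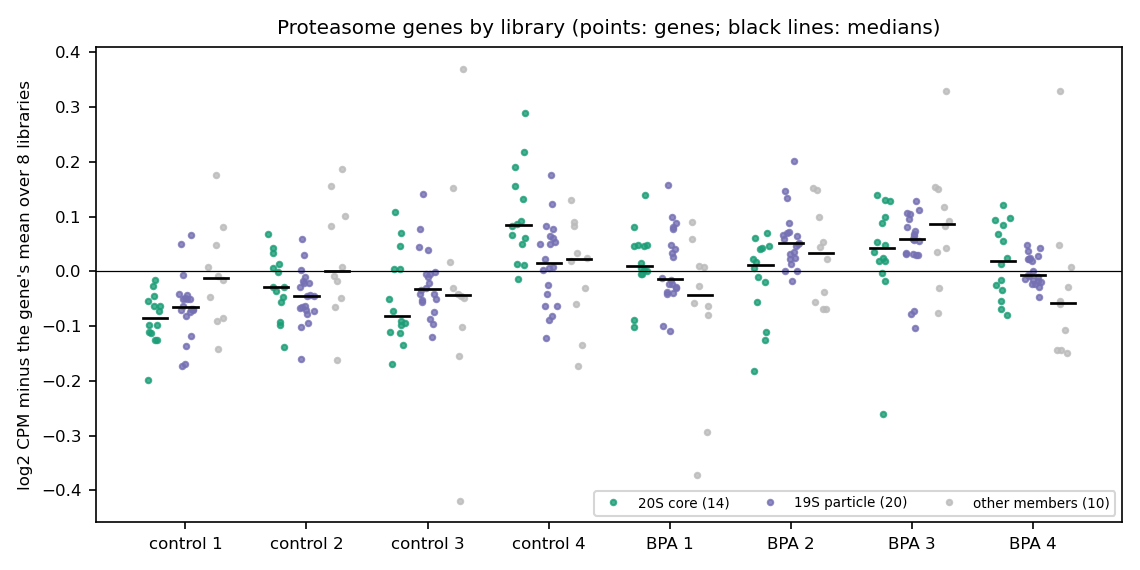
Log2 CPM of each member minus its own mean over the 8 libraries (y axis), by library (x axis), with black lines at the medians of the 20S core, the 19S particle and the other members. The median of the core is below 0 in control replicates 1 to 3 and above it in control replicate 4.

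The members' biological coefficient of variation had a median of 5.64%, beside 7.45% over all genes tested, and standard errors of the log2 fold change ran from 0.0387 (Psmc4) to 0.25 (Psmb9), with a median of 0.0555 beside 0.0746 over all genes tested. The scarce Psmb8 and Psmb9 had coefficients of 12.9 and 15.4%. Members were not compared with genes of similar level, so a trait of proteasome genes cannot be read from these medians.

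Levels between genes were compared per kilobase of exon (CPM per kilobase, mean of the 8 libraries, from the RefSeq-matched transcripts of the GENCODE annotation of mm10). Among ATPases they ran from 34.6 (Psmc6) to 83.1 (Psmc5). Among the core subunits they ran from 5.60 (Psma5) to 57.5 (Psma4) for the alpha ring and from 7.64 (Psmb3) to 76.2 (Psmb7) for the beta ring. Non-ATPase genes of the 19S particle ran from 6.45 (Psmd9) to 73.9 (Psmd4), and the chaperones Psmd5, Psmd9 and Psmd10 were the lowest of them, at 7.74, 6.45 and 8.57. Psme3 (34.5) and Psme1 (24.7) were the highest activators, Psme4 was at 6.85 and Psmf1 at 4.36, and Psmb10, Psmb8 and Psmb9 were at 4.26, 0.892 and 0.338.

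Of the 4 core genes lowest per kilobase, 3 share at least 50% of their sequence stretches with other loci, and the other one is Psma3. The share of a gene's 50-base stretches that also occur in transcripts of genes at other loci was 54.5% for Psma5, 55.8% for Psmb3 and 50% for Psmb5, most of it shared with Gm8394, AC114990.1 and Gm3375. These 3 had 5.60 to 10.4 CPM per kilobase, beside a median of 39.7 over the other 31 genes of the core and the 19S particle, of which Psmd9 was lowest. For Psme2 the share was 55.6%, all of it found in Psme2b, and for Psme2b 69.3%. The sources used here do not say how reads that map to several places were counted, so the levels of these 5 genes are uncertain. The same holds for Psma4 (25.6%), Psmd2 (25.2%), Psma3 (22.4%), Psmd11 (18.9%), Psmc1 (17.6%) and Psme1 (14.1%). Divided by the unshared part of the sequence only, Psma5, Psmb3 and Psmb5 would be at 12.3, 17.3 and 20.7 CPM per kilobase. This division assumes that no read from a shared stretch was counted. That median was not divided in this way, and Psma4, among its genes, would rise from 57.5 to 77.35. Psma2 and Psma3, at 16.4 and 9.06, have exon lengths of 2911 and 2846 bases, the longest of the core. The part of mapping in these levels was not tested.

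**Figure D5:**
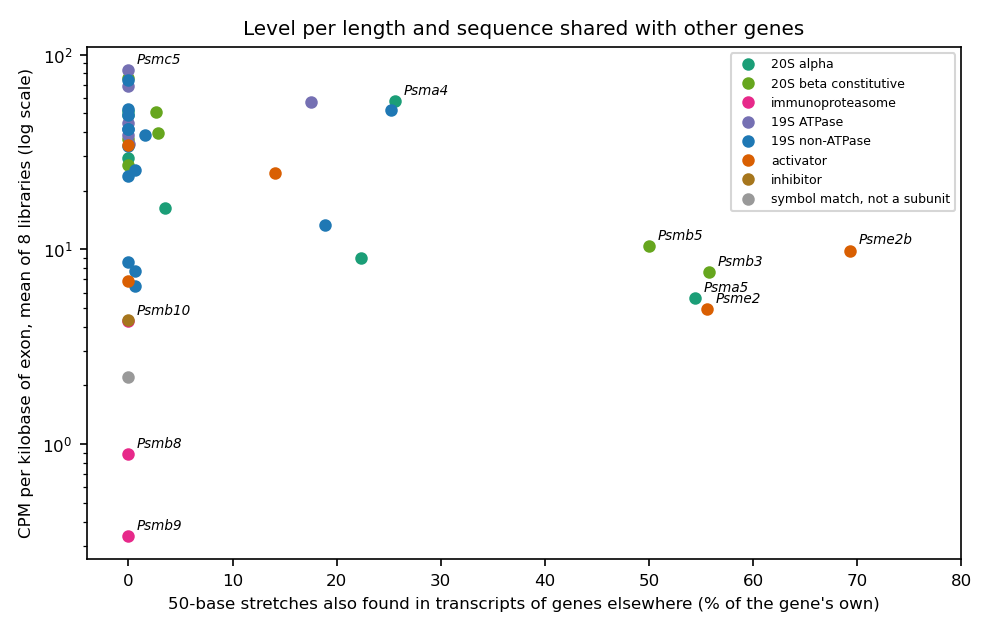
Level per kilobase of exon (y axis, log scale, mean of 8 libraries) against the share of 50-base stretches also found in transcripts of genes elsewhere (x axis, percent), 1 point per member, coloured by class. Psma5, Psmb3, Psmb5, Psme2 and Psme2b lie at 50% or more, and the highest of them, Psmb5, is at 10.4 CPM per kilobase.

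Genes that work with the proteasome were taken from 5 lists. Of the assembly chaperones of the core, all 5 that are rows of the table had estimates above 0 (median 0.12, 0 with an unadjusted p under 0.05). Pomp, which guides the beta ring and the final maturation, was at 48.9, 45.5, 50.7 and 48.0 CPM in control replicates 1 to 4 and 53.0, 52.9, 51.1 and 49.3 CPM in BPA replicates 1 to 4 (0.097 ± 0.0473), with control replicate 3 inside the BPA range, and Psmg2, a chaperone of the alpha ring, was at 9.94 ± 0.714 CPM in control mice against 10.8 ± 0.955 CPM after BPA (0.12 ± 0.0819, n = 4 each). Of 11 tested proteins that associate with the 26S complex, 5 had estimates above 0 (median -0.024) and 1 had an unadjusted p under 0.05: Adrm1, a ubiquitin receptor of the 19S particle whose symbol falls outside the rule, was at 18.6, 16.8, 20.0 and 18.3 CPM in control replicates 1 to 4 and 20.8, 20.2, 21.6 and 19.3 CPM in BPA replicates 1 to 4 (0.15 ± 0.0628; edgeR unadjusted p = 0.0308, adjusted p = 0.955), with control replicate 3 above BPA replicate 4. Shfm1, another small subunit of the particle, was at 48.6 ± 4.06 CPM in control mice against 54.2 ± 6.19 CPM after BPA (0.16 ± 0.0816), and Usp14, a deubiquitinase that edits chains on the proteasome, at 141 ± 10.4 CPM in control mice against 139 ± 5.75 CPM after BPA (-0.024 ± 0.0553, n = 4 each). None of these genes was called by edgeR.

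Of 14 genes for the transcription of proteasome genes, 8 had estimates above 0 (median 0.015). Nfe2l1, which raises proteasome genes when the proteasome is inhibited, had nearly equal means, at 379, 377, 404 and 378 CPM in control replicates 1 to 4 and 386, 392, 389 and 374 CPM in BPA replicates 1 to 4 (0.0022 ± 0.0421; fold 1.00, 95% interval 0.940 to 1.07). The log2 fold change was 0.18 ± 0.0868 for Nfya, a subunit of NF-Y, and 0.10 ± 0.0531 for Nfe2l2, the oxidative stress factor. Ubiquitin supply and shuttling genes had 8 of 17 estimates above 0 (median -0.0026), with log2 fold changes of 0.086 ± 0.0455 for Ufd1l, a cofactor of the segregase Vcp (0.020 with the depth covariate), and -0.092 ± 0.0549 for Ube2d3, a ubiquitin-conjugating enzyme (0.031 with it). Antigen presentation and interferon signalling had 12 of 17 above 0 (median 0.025). Among them B2m, the light chain of class I molecules, was at 58.5 ± 6.85 CPM in control mice against 59.6 ± 3.03 CPM after BPA (0.025 ± 0.0748), and the log2 fold change was -0.14 ± 0.231 for Tap1, 0.19 ± 0.124 for the factor Irf1 and 0.099 ± 0.0675 for the interferon gamma receptor Ifngr1 (n = 4 each). Usp14, Ufd1l, Ube2d3, Irf1 and Tap1 overlap other genes on the opposite strand. In the last 3 lists 0 members had an unadjusted p under 0.05, and all 5 lists had 0 calls by edgeR.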

How the data were processed

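Polyadenylated RNA of 8 hippocampi was sequenced from strand-marked libraries, per the labels' protocols. The deposited values are whole read counts by gene symbol and library, made by the authors with refGene models per the file headers. The submitters' processing notes name Trimmomatic 0.32, STAR 2.3.0e, featureCounts 1.5.0, the mm10 build and DESeq2, without roles. Each mouse is 1 replicate, and litters are not stated.

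Counts were fitted with edgeR 4.0.16 in R 4.3.3 (TMM scaling, filterByExpr, group as the only term, quasi-likelihood F test, Benjamini-Hochberg adjustment over all 15434 genes tested, threshold 0.05). DESeq2 1.42.0, limma-voom 3.58.1, other scalings, no filter, thinned counts, added terms and left-out libraries were alternatives. Replicate pairs of a group differed beyond sampling noise (chi-square per degree of freedom 10.2 to 24.8 over 12 pairs).

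The members and gene lists were chosen with earlier results of these data known. Values per library are given for the catalytic and inducible subunits, Psme1 to Psme4 and Psmf1, members with an unadjusted p under 0.05 and the 2 with the smallest p in each 20S and 19S class. In each related list the 2 genes with the smallest p and a few core genes are named, apart from an item that is not reported here. Shared sequence was counted as 50-base stretches of transcripts.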

Additional observations from a re-analysis of the deposited data

Results flagged for a closer look

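In 6 of the 88 sets of 4 mice examined (44 members in each group), 1 library stood far from the other 3 of its group by Dixon's criterion, which chance meets in about 1 in 20 sets. Psmd14, the deubiquitinase of the 19S particle, was at 66.9 CPM in control replicate 4, where the other controls were at 55.8 to 57.2 CPM, and the ATPase Psmc6 was at 81.5 CPM in the same library, with the others at 73.5 to 74.25 CPM. Psmd7 was at 85.7 CPM in control replicate 3 (others 77.7 to 78.8 CPM), and Psme1 at 29.4 CPM in control replicate 2 (others 26.6 to 26.9 CPM). Among BPA mice, the catalytic subunit Psmb6 was at 44.5 CPM in replicate 1 (others 39.9 to 40.6 CPM), and Psme2b at 8.74 CPM in replicate 3 (others 7.80 to 7.90 CPM).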

How the results depend on the processing

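No member was called under any of the 18 alternatives, and 30 to 38 of 44 had estimates above 0. The median log2 fold change was 0.091 with library depth in the fit and 0.032 to 0.065 when 1 library was left out. The number of members with an unadjusted p under 0.05 was 2 with the choroid plexus marker score in the fit, 0 without both choroid plexus libraries and 1 to 5 when 1 library was left out; with depth in the fit it was 4, of which 0 were among the 4 of the report. Same-numbered mice did not deviate together (correlations -0.12, -0.37, -0.30 and 0.070), and none matched its own number best. The numbers were read as names of samples, though these correlations cannot exclude that same-numbered mice share a litter. With a replicate block the number of members with an unadjusted p under 0.05 was 2 (Psma6 and Psmc1). Of 20 named members 15 kept their sign throughout, as did 8 of 14 named related genes, and for the signs that turned the cause was not tested. With depth in the fit the estimate was 0.083 for Psmb5, -0.038 for Psmb10, -0.060 for Psme1, 0.028 for Psme3, 0.12 for Usp14, -0.039 for B2m, 0.031 for Ube2d3 and -0.0095 for Ifngr1. On thinned counts it was -0.048 for Psmb10, -0.0056 for Psme1, -0.052 for Psme2 and -0.0050 for Nfe2l1. Without both choroid plexus libraries it was 0.021 for Psmb5, -0.045 for Psmb10, -0.014 for Nfe2l1 and 0.081 for Tap1. Nfe2l1 was at -3.3e-05 with RLE size factors and -0.0037 with the choroid plexus score, and Psmb10 at -0.00049 with limma-voom. Leaving out 1 library gave -0.082 to 0.058 for Psmb5, -0.036 to 0.050 for Psmb10, -0.021 to 0.049 for Psme1, -0.014 to 0.11 for Psme2, -0.0069 to 0.026 for Nfe2l1, -0.056 to 0.020 for Usp14, -0.047 to 0.085 for B2m and -0.38 to 0.013 for Tap1. Psmb9 had 10 to 27 reads per library, and the part of read number in its wide interval was not tested.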
